A study of Mus musculus with 14 samples.

Results

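Meningeal fibroblast identity genes were examined in whole mouse brain by RNA-SEQ. They are the 10 genes Aldh1a2, Crabp2, Foxc1, Foxc2, Foxd1, Zic1, Cdh1, Gjb2, Gjb6 and Bmp6, taken from a list of symbols and looked up in the annotation deposited with the counts. All 10 were found among the 17927 genes of the count table. The series holds 14 brains of untreated mice at postnatal day 2 (P2), 7 labelled WT and 7 labelled KO for Capn15. The mice derive from C57BL/6J, and the frozen brains came from 6 litters. The paper names a Capn15(lacZ-Neo) line and a FLOXed Capn15 line and does not state which gave these brains. The column names of the counts give litter and sex, with 2 females and 5 males in WT and 4 females and 3 males in KO. WT and KO libraries with the same number came from the same litter: litter A gave pair 1, litter B pairs 2 and 3, and litters C, D, E and F pairs 4, 5, 6 and 7. Within litter B the pairing follows the library numbers alone. In litters A to E the WT and KO brains of each pair differed in sex, and in litter F both were male. The labels name whole brain as the tissue and neurons as the cell type, and they put every sample in a single batch.

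The meninges are the membranes around the brain, and their fibroblasts build the pia, the arachnoid and the inner dura. These cells secrete collagen and signals, among them retinoic acid and BMPs, that reach the growing cortex, cerebellum and skull. Foxc1 and other transcription factors are needed for the meninges to form, and retinoic acid made by Aldh1a2 is a known signal from the arachnoid. Because the RNA came from whole brain, the meninges are a small part of it, and fewer cells of a type cannot be told apart from less RNA per cell. Several members are also active elsewhere in the brain: Zic1 in cerebellar granule neurons and their precursors, and Gjb6 in astrocytes.

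The libraries held between 37620954 and 70910163 counts on genes, with a median of 43181055 in WT and 50059045 in KO. At this depth 3 counts correspond to at most 0.0800 CPM (counts per 1000000 counts of the library, scaled with TMM factors), and the lowest count of any member in any library was 56, for Foxc2. For Capn15 itself the WT mean was 25.4 ± 3.07 CPM (SD, n = 7) and the KO mean 14.5 ± 2.67 CPM (SD, n = 7). It was lower in the KO library of 6 of the 7 pairs. In litter F the library labelled WT 7 was at 18.7 CPM and the library labelled KO 7 at 20.2 CPM, against their labels, so the main results are also given without that litter. Although the labels name neurons, collagen genes of fibroblasts were at high levels, with Col1a2 at 146 ± 17.2 CPM (SD, n = 7) in WT, and so was the neuronal gene Snap25 at 305 CPM, the WT mean.

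Start-site sequences are shown for 4 members, the retinoic acid enzyme Aldh1a2 and the ligand Bmp6, which rose and fell together between brains, and the neighbouring connexin genes Gjb2 and Gjb6, which did so less closely. Each sequence is RefSeq's, on GRCm38.p6, and covers 300 bases that end shortly after the gene's start in RefSeq, read on the strand of the gene. For Bmp6 this RefSeq start lies inside the gene as GENCODE M21 draws it. Capitals mark the E2 box, CACCTG or CAGGTG, a motif that zinc finger and helix-loop-helix factors can bind. They lie at chr9:71215539-71215838 (plus strand) for Aldh1a2, chr13:38345466-38345765 (plus strand) for Bmp6, chr14:57104653-57104952 (minus strand) for Gjb2 and chr14:57133562-57133861 (minus strand) for Gjb6.
Aldh1a2: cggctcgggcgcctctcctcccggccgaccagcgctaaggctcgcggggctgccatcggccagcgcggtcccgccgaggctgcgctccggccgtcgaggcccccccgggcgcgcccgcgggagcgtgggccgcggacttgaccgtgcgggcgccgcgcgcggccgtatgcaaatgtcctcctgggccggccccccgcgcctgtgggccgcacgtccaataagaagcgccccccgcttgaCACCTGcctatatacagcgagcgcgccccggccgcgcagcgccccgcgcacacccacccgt
Bmp6: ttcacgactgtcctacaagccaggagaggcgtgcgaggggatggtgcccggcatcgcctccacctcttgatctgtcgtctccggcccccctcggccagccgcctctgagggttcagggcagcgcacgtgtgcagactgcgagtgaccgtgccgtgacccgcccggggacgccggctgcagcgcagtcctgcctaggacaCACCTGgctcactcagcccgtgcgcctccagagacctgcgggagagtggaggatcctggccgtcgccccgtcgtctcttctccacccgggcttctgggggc
Gjb2: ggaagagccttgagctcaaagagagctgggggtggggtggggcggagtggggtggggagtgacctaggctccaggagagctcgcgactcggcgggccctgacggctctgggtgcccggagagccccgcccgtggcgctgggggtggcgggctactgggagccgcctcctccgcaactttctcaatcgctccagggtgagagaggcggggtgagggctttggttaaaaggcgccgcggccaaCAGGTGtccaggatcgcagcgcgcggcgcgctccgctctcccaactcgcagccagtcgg
Gjb6: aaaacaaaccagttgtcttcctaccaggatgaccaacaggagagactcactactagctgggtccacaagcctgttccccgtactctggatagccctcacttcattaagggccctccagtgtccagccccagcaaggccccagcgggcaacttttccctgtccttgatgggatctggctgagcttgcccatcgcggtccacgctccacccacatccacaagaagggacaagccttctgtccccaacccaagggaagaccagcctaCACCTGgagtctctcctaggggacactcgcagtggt

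A start-site sequence was at hand for 7 of the 10 members, those of Aldh1a2, Bmp6, Foxc1, Foxd1, Gjb2, Gjb6 and Zic1. The 4 sequences printed above are those of the 7 that hold the E2 box, so their sharing it is no result. It occurred once in each of them, not in Foxc1, Foxd1 and Zic1, and in 20.2% of the 32851 start-site sequences of the genome on either strand. Its letters begin at base 240 of the Aldh1a2 sequence, base 200 of Bmp6, base 242 of Gjb2 and base 265 of Gjb6, counted from the 5′ end. The forkhead core TGTTTA occurred in 0 of the 7 and in 13.4% of all start-site sequences. The nuclear receptor element AGGTCA occurred only in Gjb2 among the 7 and in 16.3% of all, and the GC box GGGCGG occurred in Bmp6, Foxc1, Foxd1, Gjb2 and Zic1 and in 35.7% of all. The TATA box TATAAA occurred in 0 of the 7 and in 13.6% of all. All motifs were searched on both strands, no matches in the 7 overlapped, and a match describes the sequence only. CpG pairs were plentiful in most of these sequences, with 50 in Aldh1a2, 32 in Foxc1, 31 in Zic1, 27 each in Bmp6 and Gjb2 and 15 in Foxd1, beside a median of 7 over the genome. Gjb6, with 6 CpG pairs, lay below that median, unlike its neighbour Gjb2.

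The members were measured at levels that span a wide range. Per kilobase of exon, Zic1 was highest at 32.9 CPM per kb in WT, followed by Aldh1a2 at 7.78, Crabp2 at 5.11, Gjb2 at 4.53, Bmp6 at 4.33 and Gjb6 at 4.22 CPM per kb. The 3 forkhead genes and Cdh1 were lower, with Foxc1 at 2.04, Cdh1 at 1.595, Foxc2 at 0.722 and Foxd1 at 0.577 CPM per kb in WT. In this order the differences between Crabp2 and Gjb2, Gjb2 and Bmp6, Bmp6 and Gjb6, and Foxc2 and Foxd1 were smaller than the larger SD of the pair, so their order is not separated by the spread between brains. The order was the same in KO except that Bmp6, at 4.197 CPM per kb, came just above Gjb2 at 4.188 CPM per kb.

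The comparison of WT with KO asks whether loss of Capn15 changed the transcripts of the newborn brain. The 14 libraries were fitted together in edgeR, with genotype, litter and sex as terms, and each gene was tested by quasi-likelihood. An FDR (the p adjusted over all 17927 genes) under 0.05 was taken as a call. Of the 10 members, 0 were called, beside 0.00558% of all genes, which is 1 gene. That gene was Ptgds, so Capn15 itself was not called in this fit, which includes litter F. The paper, whose edgeR analysis also held sex and litter, lists more genes as called, Capn15 first among those lower in KO. Why the 2 analyses differ was not tested. At an unadjusted p under 0.05 the members Crabp2 and Gjb6 were lower in KO, 2 of 10, beside 5.14% of all genes in either direction and 2.26% lower in KO. The fitted difference was below 0 for 9 of the 10 members, beside 48.6% of all genes, and the median log2 fold change of the members was -0.07, beside 0.00153 over all genes. Most members rose and fell together over the same 14 libraries, so they are not independent values and this count is a description. WT and KO overlapped for all 10 members, as they did for all but 0.00558% of genes. In the two-sided exact permutation test over 7 against 7 libraries, 0 of 10 members had p under 0.05, beside 1.73% of all genes. Without litter F, 0 members were called, 8 were fitted below 0 and their median log2 fold change was -0.04.

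**Figure D1:**
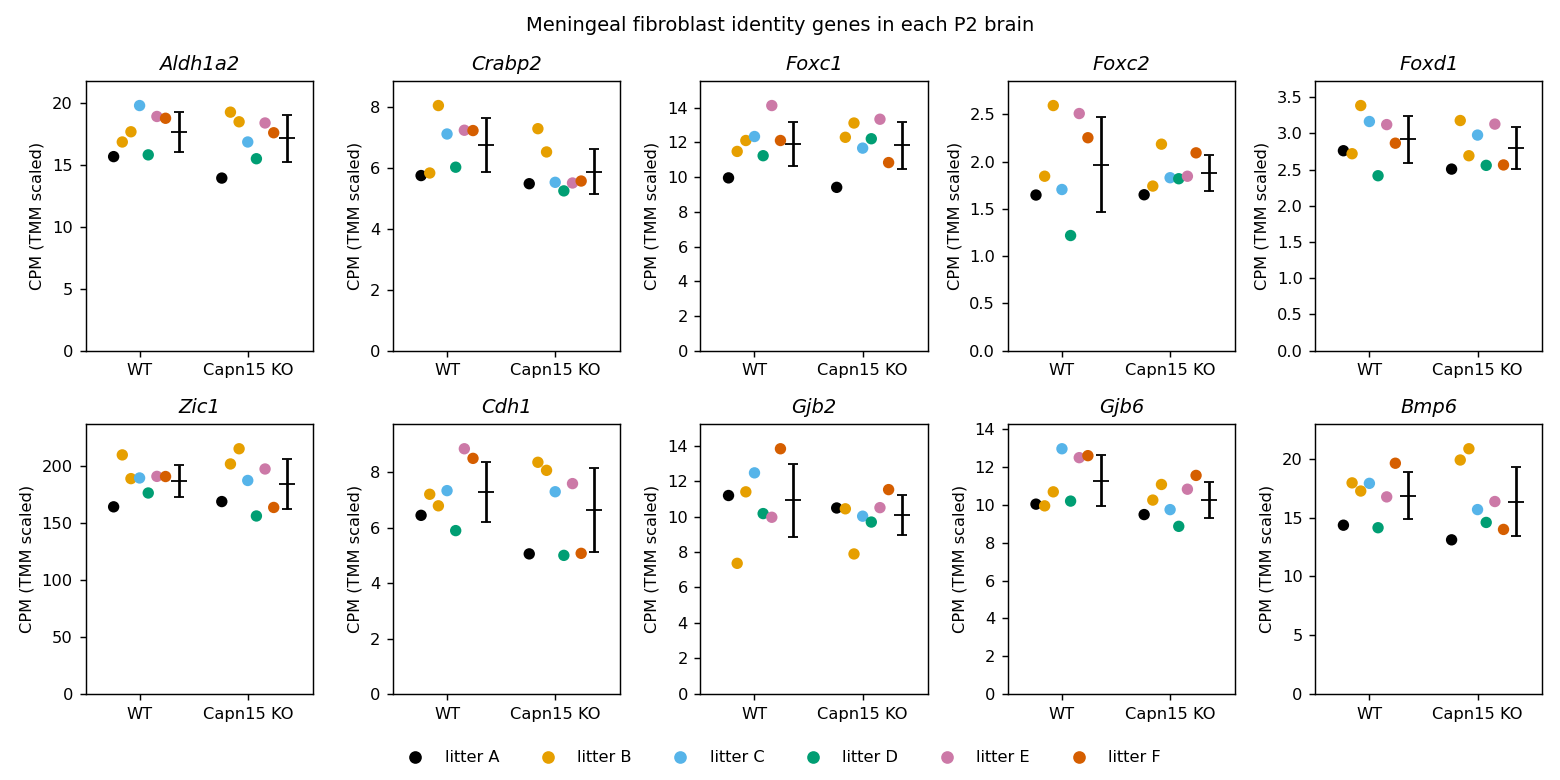
CPM of the 10 genes in each brain (points, coloured by litter) for WT and Capn15 KO, with the mean and SD of each group (n = 7) beside the points and each vertical axis starting at 0. The groups overlap in every panel, and the black points of litter A sit low in most panels.

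The genes of retinoic acid signalling were Aldh1a2 and Crabp2. Aldh1a2 (ENSMUSG00000013584, chromosome 9 from 71215789 to 71296243 on the plus strand of GRCm38, 14 exons) encodes the enzyme that makes retinoic acid from retinaldehyde. It was at 15.6, 17.6 and 19.8 CPM (lowest, median and highest of 7) in WT and at 13.9, 17.6 and 19.2 CPM in KO. The library KO 1 was the lowest of the 14 and WT 4 the highest, and the groups overlapped over most of their range. The log2 fold change was -0.06 with a standard error of 0.0470 (edgeR FDR = 1.0), and its 95% interval ran from -0.17 to 0.04. Gm48124 overlaps Aldh1a2 on the other strand.

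Crabp2 (ENSMUSG00000004885, chromosome 3 from 87948666 to 87953376, plus strand, 4 exons) encodes a protein that carries retinoic acid to its nuclear receptors. Its level was 5.75, 7.12 and 8.05 CPM (lowest, median and highest) in WT and 5.25, 5.53 and 7.29 CPM in KO. In 5 of the 7 KO libraries it lay below the lowest WT library, while KO 2 and KO 3, both of litter B, lay above the WT libraries of litters A and D and WT 2. Crabp2 was lower in the KO library in 6 of the 7 pairs, and 5.52% of all genes were lower in 6 or 7 of the 7 pairs. KO differed from WT by a log2 fold change of -0.23 (standard error 0.0832, unadjusted p = 0.0153 and FDR = 0.805 by quasi-likelihood in edgeR), with a 95% interval from -0.41 to -0.05. Without a model, the difference gave p = 0.0664 in the two-sided exact permutation test over 7 against 7 libraries and p = 0.0938 in the exact sign-flip test over 7 pairs. Without litter F the log2 fold change was -0.20 (edgeR FDR = 1.0).

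The wider retinoic acid list (enzymes, carriers, receptors and uptake proteins) held 17 measured genes of 19, Cyp26a1 and Cyp26c1 not being among those counted. No gene of it was called at an FDR under 0.05, while 2 were lower and 1 higher at an unadjusted p under 0.05, and its median log2 fold change was -0.02. Rbp4, the plasma carrier of retinol, had a WT mean of 1.66 ± 0.586 CPM (SD, n = 7) and a KO mean of 1.08 ± 0.265 CPM (SD, n = 7), a log2 fold change of -0.64 (edgeR FDR = 0.259). Aldh1a1, a related retinaldehyde dehydrogenase, had a log2 fold change of -0.16 (edgeR FDR = 0.641). Both were lower in the KO library in 7 of 7 pairs. Stra6, a retinol uptake receptor, went the other way, with a log2 fold change of 0.27 (edgeR FDR = 0.879). Cyp26b1, which breaks down retinoic acid, was at 38.2 CPM in WT and 38.02 CPM in KO on average.

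The transcription factors were 3 forkhead genes and Zic1. Foxc1 (ENSMUSG00000050295, chromosome 13 from 31806633 to 31812476, plus strand, a single exon) is needed for the meninges and skull to form. It was at 9.95, 12.1 and 14.1 CPM (lowest, median and highest) in WT and at 9.41, 12.2 and 13.3 CPM in KO. It had a log2 fold change of -0.01 (standard error 0.0511, edgeR FDR = 1.0), the smallest in size among the 10, with a 95% interval from -0.12 to 0.10. Both libraries of litter A were the lowest of their group, and both of litter E the highest.

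Foxc2 (ENSMUSG00000046714, chromosome 8 from 121116171 to 121118895, plus strand, a single exon), the close relative of Foxc1, was the member with the fewest counts. It was at 1.22, 1.85 and 2.59 CPM (lowest, median and highest) in WT and at 1.65, 1.83 and 2.19 CPM in KO. The WT libraries spread more widely, and they held both the lowest library, WT 5, and the highest, WT 3. The fitted log2 fold change was 0.03 with a 95% interval from -0.23 to 0.29, while the mean log2 level without a model was lower in KO by a difference of -0.03, so that its sign was not fixed. Gm20388 overlaps Foxc2 on the same strand, and the count of Foxc2 is uncertain to that extent.

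Foxd1 (ENSMUSG00000078302, chromosome 13 from 98354242 to 98359305, plus strand, a single exon) is a forkhead factor of mesenchymal stroma. It was at 2.42, 2.87 and 3.39 CPM (lowest, median and highest) in WT and at 2.51, 2.69 and 3.18 CPM in KO. No KO library lay below the lowest WT library, WT 5. The log2 fold change was -0.05, with a 95% interval from -0.23 to 0.13, and -0.03 without litter F.

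Zic1 (ENSMUSG00000032368, chromosome 9 from 91358058 to 91365810, minus strand, 3 exons) encodes a zinc finger factor of the meninges and the cerebellum. It was at 164, 189 and 210 CPM (lowest, median and highest) in WT and at 156, 187 and 215 CPM in KO. KO 5 was the lowest library and KO 3 the highest, so that the KO range held the whole WT range. KO differed from WT by a log2 fold change of -0.05 (standard error 0.0371), and its 95% interval from -0.13 to 0.03 was the narrowest of the 10. It was -0.02 without litter F, and with single libraries left out it ran from -0.10 (unadjusted p = 0.0295 and FDR = 0.666 by quasi-likelihood in edgeR, without WT 4) to -0.02. Zic4 overlaps Zic1 on the other strand. Among other forkhead and Zic genes, 9 of 11 were measured, without Foxl1 and Foxd4. None of them reached an unadjusted p under 0.05, none was called at an FDR under 0.05 by edgeR's quasi-likelihood test, and their median log2 fold change was 0.0097. Zic4, for example, was at 48.5 CPM in WT and 49.0 CPM in KO on average.

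The junction genes were the cadherin Cdh1 and the connexins Gjb2 and Gjb6. Cdh1 (ENSMUSG00000000303, chromosome 8 from 106603351 to 106670246, plus strand, 16 exons) encodes E-cadherin, the adhesion protein of epithelia and of arachnoid barrier cells. It was at 5.90, 7.21 and 8.86 CPM (lowest, median and highest) in WT and at 5.005, 7.30 and 8.37 CPM in KO. The KO libraries fell apart into KO 1, KO 5 and KO 7 at 5.005 to 5.08 CPM, all below the lowest WT library, and the other 4 at 7.30 CPM or more. The log2 fold change was -0.18 (standard error 0.101, edgeR FDR = 1.0). Without litter F, which held KO 7, it was -0.07. Of 11 other cadherins and catenins, 1 was lower at an unadjusted p under 0.05. That gene was Cdh3, the P-cadherin, with a log2 fold change of -0.23 (edgeR FDR = 0.885), though it was lower in the KO library in 3 of 7 pairs. The median of the list was 0.02.

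Gjb2 (ENSMUSG00000046352, chromosome 14 from 57098600 to 57104702, minus strand, 2 exons) and Gjb6 (ENSMUSG00000040055, chromosome 14 from 57123303 to 57133611, minus strand, 3 exons) encode connexins, which form gap junctions, and they lie close together on the same strand. Gjb2 was at 7.36, 11.2 and 13.8 CPM (lowest, median and highest) in WT and at 7.89, 10.4 and 11.5 CPM in KO. The lowest libraries of both groups, WT 2 and KO 3, were from litter B, and the highest of both, WT 7 and KO 7, were from litter F. It had a log2 fold change of -0.13 (standard error 0.0903, edgeR FDR = 1.0).

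Gjb6 was at 9.96, 10.7 and 13.0 CPM (lowest, median and highest) in WT and at 8.87, 10.3 and 11.6 CPM in KO. The 3 highest libraries were WT 4, WT 6 and WT 7, and 3 KO libraries lay below the lowest WT library. Gjb6 was lower in the KO library in 5 of 7 pairs. KO differed from WT by a log2 fold change of -0.17 (standard error 0.0519, unadjusted p = 0.00506 and FDR = 0.632 by quasi-likelihood in edgeR), with a 95% interval from -0.28 to -0.06. The two-sided exact permutation test over the libraries, which does not take litter and sex into account, gave p = 0.132, and the exact sign-flip test over pairs gave p = 0.0781. Without litter F the fitted value was -0.18 (edgeR FDR = 0.965). Of the other connexins, 10 of 15 were measured, and their median log2 fold change was -0.11. Gja1, the main astrocyte connexin, was the one lower at an unadjusted p under 0.05, with a WT mean of 182 ± 31.6 CPM (SD, n = 7) and a KO mean of 168 ± 11.8 CPM (SD, n = 7), a log2 fold change of -0.13 (edgeR FDR = 0.824).

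Bmp6 (ENSMUSG00000039004, chromosome 13 from 38345107 to 38500302, plus strand, 7 exons) encodes a secreted BMP ligand. It was at 14.1, 17.3 and 19.6 CPM (lowest, median and highest) in WT and at 13.1, 15.7 and 20.9 CPM in KO. KO 2 and KO 3, of litter B, were the highest of all libraries, and KO 1 and KO 7 the lowest. The log2 fold change was -0.08 (standard error 0.0699, edgeR FDR = 1.0), and -0.0044 without litter F. 4930579J19Rik and Txndc5 overlap Bmp6 on the other strand. All 23 other genes of the BMP list were measured (ligands, receptors, SMADs, antagonists and ID targets), and their median log2 fold change was -0.01. At an unadjusted p under 0.05, 0 were lower and 4 were higher in KO, the receptors Acvr1 (log2 fold change 0.09) and Bmpr2 (0.07), the signal transducer Smad5 (0.06) and the target Id2 (0.08), and 0 of the 23 were called at an FDR under 0.05 by edgeR's quasi-likelihood test.

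**Figure D2:**
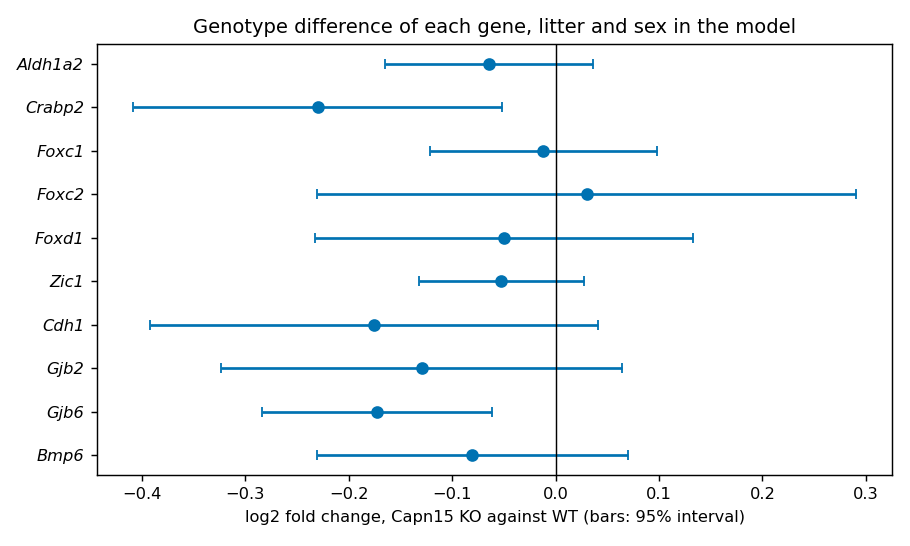
Log2 fold change of KO against WT for each gene, from the model with genotype, litter and sex over 14 libraries, with bars for the 95% interval and a line at 0. The intervals of Crabp2 and Gjb6 do not reach 0 before adjustment over all genes, and the other 8 do.

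Other markers of meningeal fibroblasts were read from the same fit. Of 25 such markers, all were measured, 1 was called at an FDR under 0.05 by edgeR's quasi-likelihood test, 8 were lower and 2 higher at an unadjusted p under 0.05 (2.26% of all genes were lower), and their median log2 fold change was -0.07. The called gene was Ptgds, which encodes prostaglandin D2 synthase and is also made by the choroid plexus. The matrix proteoglycan genes Fmod and Ogn had log2 fold changes of -0.55 and -0.39 (edgeR FDR = 0.176 for each). The proteoglycan genes Lum and Dcn had -0.24 (edgeR FDR = 0.959) and 0.000049. The collagen genes Col1a1, Col1a2 and Col3a1 had 0.14, -0.07 and -0.11. None of these proteoglycan and collagen genes was called. Slc6a13, Slc22a6, Angptl2 and Wnt6 were also lower at an unadjusted p under 0.05, and Slc47a1 and Fxyd5 were higher. The paper, which also put sex and litter in its edgeR analysis, lists Ptgds, Fmod and Ogn as lower in KO, with larger fold changes. The cause of this difference was not tested. The list of 25 holds these genes and was chosen with earlier results of these data known. Its count of lower genes is therefore no independent result. The summed level of the 25 lay between 1103 and 1328 CPM in WT and between 1046 and 1210 CPM in KO. The summed level of the 10 members, most of it Zic1, lay between 241.8 and 290.8 CPM in WT and between 231.5 and 305.8 CPM in KO.

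Markers of choroid plexus epithelium were also set beside the members. Of 10 markers 7 were lower at an unadjusted p under 0.05, beside 2.26% of all genes, and 0 were called at an FDR under 0.05 by edgeR's quasi-likelihood test. Their median log2 fold change was -0.18, and their summed level was 872.5 to 1128 CPM in WT and 727.1 to 981.9 CPM in KO. This list, too, was chosen with earlier results of these data known. It holds Ttr and Enpp2, which the paper lists as lower in KO, so its count is no independent result. The part of these markers in the values of the members was not tested. Other cell types were read at an unadjusted p under 0.05, which 5.14% of all genes passed in either direction, with 1 of 10 astrocyte markers lower (Gja1), 1 of 9 measured cerebellar granule cell markers higher (Reln), 1 of 10 endothelium markers higher (Cldn5), 2 of 10 mural cell markers lower (Acta2 and Tagln) and 3 of 10 microglia markers higher (C1qb, C1qc and Trem2). Of 10 neuron markers 1 was higher (Dcx) and 1 lower (Slc17a6), and of 8 measured bone and cartilage markers 1 was higher (Runx2). None of 7 measured red blood cell markers and none of 6 measured epithelium and pituitary markers passed, and in none of these lists was a gene called at an FDR under 0.05 by edgeR. Red blood cell markers varied most between brains, with summed levels from 31.2 to 325 CPM in WT and from 36.1 to 242 CPM in KO. The epithelial gene Epcam, whose product marks the epithelia that also hold E-cadherin, was at 1.19 CPM in WT and 1.34 CPM in KO on average. Of the 6 measured genes of its list, 3 had a log2 fold change below 0, Krt8 (-0.13), Krt18 (-0.09) and Krt19 (-0.15).

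The difference between the WT and KO means was smaller than the WT SD for every member, and smaller than the KO SD for all but Crabp2 and Gjb6. Across the 14 libraries the coefficient of variation lay between 9.58% for Zic1 and 19.1% for Foxc2, followed by Cdh1 at 18.8% and Gjb2 at 15.7%. Over the 15227 genes with a mean of at least 1 CPM, 60.5% had a lower coefficient than Zic1 and 92.0% a lower one than Foxc2, and the other members lay between these shares. Part of this spread followed the litters. In the same edgeR fit, 5 of the 10 members differed between litters at an FDR under 0.05, beside 29.6% of all genes. These were Zic1 (FDR = 0.00605), Foxc1 (0.0147), Aldh1a2 (0.0190), Gjb6 (0.0250) and Bmp6 (0.0318), each from edgeR's quasi-likelihood test.

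Litter A or litter D had the lowest mean in 9 of the 10 members. Aldh1a2 was at 14.8 CPM in litter A and 18.6 CPM in litter E, and Foxc1 at 9.68 CPM in litter A and 13.7 CPM in litter E. Zic1 was at 166 CPM in both litters A and D and at 204 CPM in litter B, and Bmp6 at 13.7 CPM in litter A and 19.0 CPM in litter B. Gjb2 was the exception, with its lowest mean of 9.27 CPM in litter B and its highest of 12.7 CPM in litter F. The count of members called between litters rested on litter A: without WT 1 it was 2, without KO 1 it was 1, and without both it was 1, Zic1, beside 21.4%, 21.2% and 23.2% of all genes. Without litter F it was 5, beside 27.5% of all genes, with Cdh1 in the place of Gjb6.

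No member was called between the sexes. At an FDR under 0.05 the count was 0 of 10, beside 0.0669% of all genes or 12 genes, in the edgeR fit, and at an unadjusted p under 0.05 it was 1, beside 5.04% of all genes. That member was Gjb6, higher in females by a log2 fold change of 0.12 (edgeR FDR = 0.927).

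**Figure D3:**
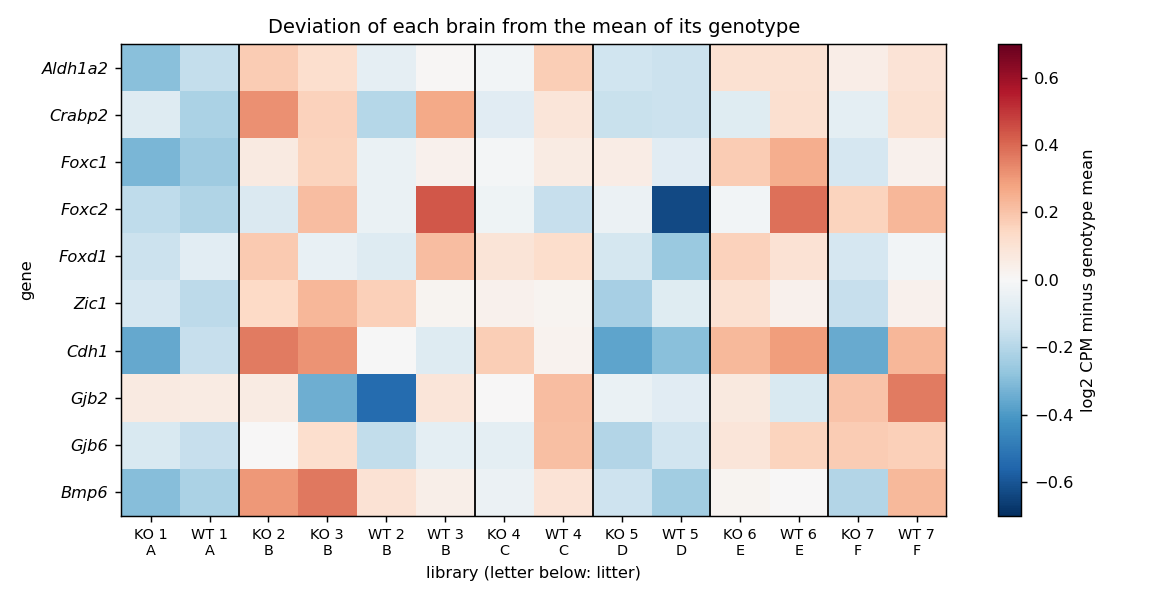
Log2 CPM of each gene in each library minus the mean of its genotype, as colour, with libraries ordered and divided by litter (letters under the library names). Most genes are below their mean in litters A and D and above it in litter B or E, while Gjb2 is above its mean in litters A and F and lowest in WT 2.

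Most members rose and fell together between brains, and Gjb2 and Foxc2 had no pair past the threshold by Pearson's r. Correlations were computed across the 14 libraries for all 45 pairs of members, from log2 CPM less the mean of the genotype, and their p-values come from 100000 permutations with Benjamini-Hochberg adjustment over the 45. The permutations move all libraries freely and so treat littermates as independent. Where members differ between litters, these p-values can be too small. Pearson's r was above 0 in 41 of the 45 pairs, with a median of 0.51, and 12 pairs had an adjusted p under 0.05 (20 by Spearman's rho). In the 36 pairs without Gjb2, r lay between 0.29 and 0.85 with a median of 0.56. In the 9 pairs with Gjb2, r lay between -0.42 and 0.42 with a median of 0.06, and 0 of them had an adjusted p under 0.05 by either measure. With litter and sex removed as well, 8 of the 9 pairs with Gjb2 and 30 of the 36 without it were above 0. Foxc2 had r from 0.06 to 0.55. The median r over all pairs was 0.56 within the WT libraries and 0.48 within the KO libraries.

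Zic1, Cdh1 and Bmp6 formed the closest trio. Zic1 and Bmp6 had r = 0.85 and rho = 0.77 (n = 14, adjusted permutation p = 0.00900 and 0.0145), and r was 0.86 without the libraries KO 5 and WT 1. Cdh1 and Bmp6 had r = 0.84 and rho = 0.79 (adjusted permutation p = 0.00900 and 0.0127), with r = 0.80 without KO 5 and KO 1. Zic1 and Cdh1 had r = 0.83 and rho = 0.83 (adjusted permutation p = 0.00900 and 0.0127), with r = 0.80 without KO 5 and WT 1. This pair was closer in KO (r = 0.95) than in WT (r = 0.51), a difference that was not tested.

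Aldh1a2 was the member with the most partners. It had an adjusted permutation p under 0.05 with Gjb6 (r = 0.79), Bmp6 (0.78), Foxc1 (0.77), Cdh1 (0.77), Crabp2 (0.69) and Foxd1 (0.69), and it did not with Zic1 (r = 0.64, adjusted permutation p = 0.0611), Foxc2 (0.48) or Gjb2 (0.17). Without its 2 libraries farthest from the median, KO 1 and WT 1, r with Foxc1 went from 0.77 to 0.52, while r with Gjb6 was 0.82. The retinoic acid pair Aldh1a2 and Crabp2 had rho = 0.76 (adjusted permutation p = 0.0147). The forkhead pair Foxc1 and Foxc2 had r = 0.49 and rho = 0.50 (adjusted permutation p = 0.151 and 0.126). The neighbours Gjb2 and Gjb6 had r = 0.42 and rho = 0.52 (adjusted permutation p = 0.211 and 0.117).

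**Figure D4:**
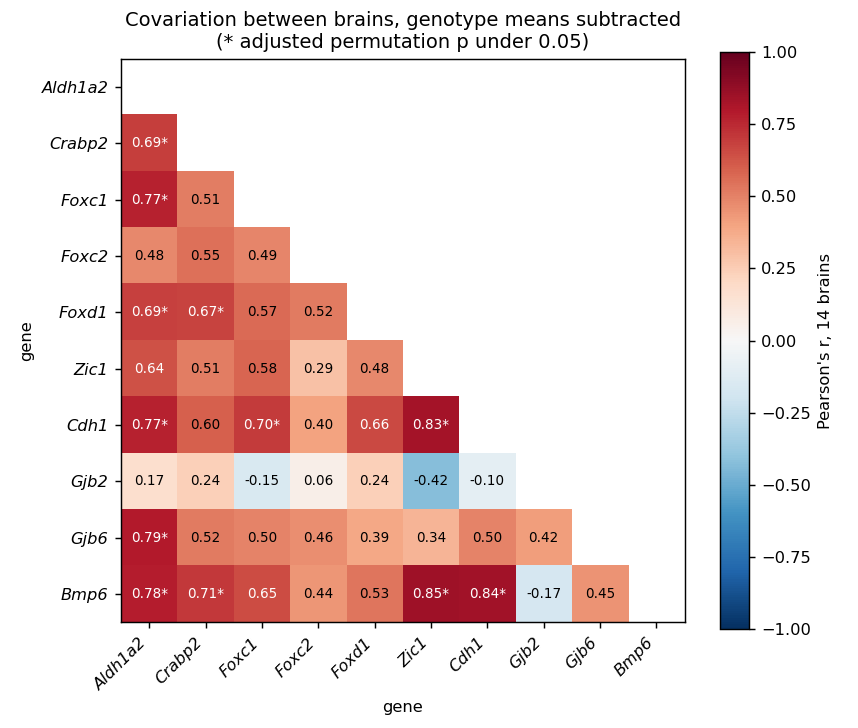
Pearson's r of each pair of genes over 14 libraries, genotype means subtracted, as colour and number, with a star at an adjusted permutation p under 0.05. The 12 starred pairs fall among Aldh1a2, Crabp2, Foxc1, Foxd1, Zic1, Cdh1, Gjb6 and Bmp6, and the rows and columns of Gjb2 and Foxc2 hold none.

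The covariation was weaker once litter and sex were removed together. With both removed as well as genotype, the median r over the 45 pairs fell from 0.51 to 0.32, 38 pairs stayed above 0, and 1 pair had an adjusted permutation p under 0.05. That pair was Foxd1 and Gjb2, with r = 0.99 (adjusted permutation p = 0.00135), which had r = 0.24 with only the genotype mean removed. Values with litter and sex removed rest on few independent values, since most litters hold 1 pair of libraries, whose residuals mirror each other. Zic1 and Bmp6 were at r = 0.53 and Cdh1 and Bmp6 at 0.86 on that scale (adjusted permutation p = 0.532 and 0.200). The count of 12 pairs also rested on single libraries: it was 4 without KO 1, 7 without WT 4, 7 without WT 5, 7 without WT 7 and 4 without both libraries of litter A, with a median r of 0.43 in that last case. Without litter F it was 8.

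As background, r of at least 0.5 with a given member was common for some members and rare for others. Among the 15226 other genes with a mean of at least 1 CPM, 24.5% reached it with Zic1, 20.4% with Bmp6, 20% with Gjb2 and 13.9% with Cdh1. For the rest the share lay between 2.0% for Foxc2 and 8.63% for Foxc1. Of the 9 other members, 8 reached it with Crabp2 (7.92% of all genes), 7 with Aldh1a2 (7.16%), 6 each with Bmp6, Cdh1, Foxc1 and Foxd1, 5 with Zic1, 2 each with Foxc2 and Gjb6, and 0 with Gjb2. These genes share the same 14 libraries, so the shares are a description.

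The genes whose pattern over the 14 libraries was most like each member were found by Pearson's r on the same scale. For Aldh1a2 they were Ccnd3 (r = 0.90), Fhdc1 (0.89) and Hs3st1 (0.88), for Crabp2 Glb1l2 (0.91), Tfpi (0.84) and Plin3 (0.83), and for Foxc1 Slc6a13 (0.89), a GABA transporter of the meninges, Traf3ip1 (0.89) and Zfp775 (0.89). For Foxc2 they included Mreg (0.80) and Rpsa-ps2 (0.78), and for Foxd1 they were Slc26a7 (0.82), Zswim3 (0.82) and Mrgprf (0.81). For Zic1 they were Tsnax (0.95), Aqp1 (0.95), the water channel of choroid plexus, and Sp3 (0.95), and for Bmp6 Mrpl50 (0.94), Rps16 (0.94) and Retreg3 (0.93). For Cdh1 they were Emilin1 (0.90), Tekt2 (0.90) and Arsg (0.89), for Gjb2 Casp12 (0.91), Suox (0.91) and Ppm1j (0.90), and for Gjb6 Slc13a4 (0.90), Tmem17 (0.85) and Ptgds (0.83).

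The members were also set against the mean log2 level of each of the 16 other lists, 160 relations in all, with genotype means subtracted and adjustment over the 160. In 3 of them the adjusted permutation p was under 0.05. Here too the permutations treat littermates as independent. Values of r with litter and sex removed again rest on few independent values. Zic1 rose with the BMP list (r = 0.91, adjusted permutation p = 0.00320, and rho = 0.87, adjusted permutation p = 0.0155), and r was 0.86 without KO 3 and WT 1 and 0.75 once litter and sex were removed. Zic1 fell as neuron markers rose (r = -0.85, adjusted permutation p = 0.0280, and rho = -0.85, adjusted permutation p = 0.0155), with r = -0.76 without WT 2 and KO 3 and -0.75 once litter and sex were removed. Cdh1 rose with choroid plexus markers (r = 0.81, adjusted permutation p = 0.0320, and rho = 0.82, adjusted permutation p = 0.0264), with r = 0.81 without WT 5 and KO 5 and 0.68 once litter and sex were removed. On each of these measures the low libraries of the member were those of litters A and D and KO 7. The relation with choroid plexus markers was not particular to Cdh1. Zic1 (r = 0.725), Bmp6 (0.70), Foxd1 (0.69) and Foxc2 (0.67) also rose with them, with adjusted permutation p from 0.0639 to 0.0927, while Gjb2 did not (r = -0.04). With other meningeal markers r was lower for Bmp6 (0.43) and Cdh1 (0.54), and higher for Gjb6, Crabp2, Aldh1a2 and Gjb2.

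**Figure D5:**
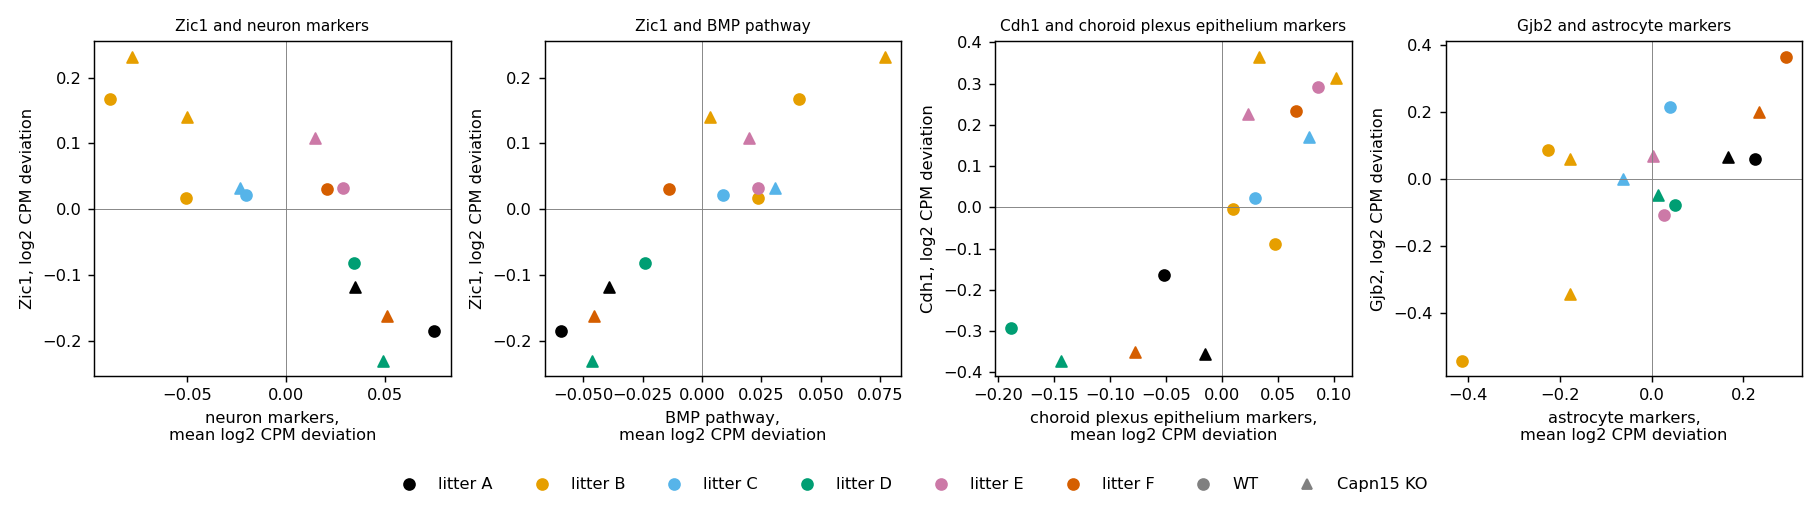
Log2 CPM of a gene against the mean log2 CPM of a marker list in 14 libraries, genotype means subtracted, with colour for litter and shape for genotype. Zic1 falls with neuron markers (r = -0.85) and rises with the BMP list (r = 0.91), Cdh1 rises with choroid plexus markers (r = 0.81), and the relation of Gjb2 to astrocyte markers (r = 0.74) rests on WT 2 and WT 7.

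Gjb2 and the astrocyte markers had r = 0.74 (adjusted permutation p = 0.0604) and rho = 0.52 (adjusted permutation p = 0.206). Without the libraries WT 2 and WT 7 r was 0.40, so the relation rests on them. Gjb6, the astrocyte connexin, had r = 0.29 with the same markers (adjusted permutation p = 0.514). With the 25 other meningeal markers, the highest r was that of Gjb6 at 0.73 (rho = 0.74, adjusted permutation p = 0.0604 and 0.0560), followed by Foxd1 and Crabp2 at 0.68 and Aldh1a2 at 0.66. Zic1 had the lowest r with them over the 14 libraries (r = 0.16 and rho = 0.16, adjusted permutation p = 0.741 and 0.717). For Zic1 r was 0.44 without WT 5 and WT 2, where that of Gjb2 was lower at 0.30, and -0.38 once litter and sex were removed.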

How the data were processed

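RNA of 14 whole P2 mouse brains (7 WT and 7 KO) was sequenced after depletion of ribosomal RNA. The authors trimmed reads with Trimmomatic and aligned them to GRCm38 with STAR, and they deposited raw counts per gene without normalization. The paper names HTSeq-count, the ScriptSeq kit and a HiSeq instrument, while the labels name featureCounts, NovaSeq and a TruSeq Stranded kit; the strand setting and the gene filter are not given in the sources used here. Litter and sex came from the deposited column names. Every library was kept as a separate sample, since even the most alike pair had a chi-square of 5.61 per gene.

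The members and lists were chosen with earlier results of these data known. Tests of counts used edgeR 4.0.16 (TMM factors, quasi-likelihood test, no filter, genotype with litter and sex, Benjamini-Hochberg over 17927 genes, called under 0.05), DESeq2 1.42.0 and limma 3.58.1, run in R 4.3.3. Permutations, correlations and figures used scipy 1.17.1, numpy 2.4.6, pandas 2.3.3 and matplotlib 3.10.9 under Python 3.11.15. The fit was tested on simulated data. Log2 CPM used a prior count of 2. Exact permutation tests over 3432 splits (smallest p 0.000583) and sign-flip tests over 128 sign changes (smallest p 0.0156) were two-sided. Neither takes sex into account. Same-numbered libraries share a litter, and their deviations correlated with r from -0.47 to 0.44. Alternatives were other tests, scalings, filters, covariates, a replicate block and libraries left out.

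The genes named are the 10 members, Capn15, genes of each list with an unadjusted p under 0.05 or that mark a cell type, and the 3 genes most like each member. Other genes were chosen after their values were seen. Not every gene that the rule covers is reported here. Positions and exons came from GENCODE M21, in which 17909 genes were found by identifier, and start-site sequences from RefSeq.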

Additional observations from a re-analysis of the deposited data

Results flagged for a closer look

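No member had a library that stood apart from the 6 others of its group. The only results that did were those of Capn15, the gene that checks the labels. In WT the library labelled WT 7 was the lowest, with a log2 CPM of 4.23, and the next library was at 4.64, a gap of 0.761 of the whole range of the group. In KO the library labelled KO 7 was the highest, with a log2 CPM of 4.34, and the next library was at 3.87, a gap of 0.647 of the range. Both are from litter F. Of 22 groups examined, chance alone would mark about 1.1.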

How the results depend on the processing

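Over 26 alternatives to the KO against WT fit, 0 members were called in each, by every tool run. Not all 26 are distinct checks, since litter is in the model and most litters hold 1 pair. The median log2 fold change of the members was -0.134 both without WT 5 and without KO 5. The count of all genes called, 1, was 34 by edgeR's likelihood ratio test, 17 by DESeq2, 0 with library totals only (883 at an unadjusted p under 0.05), 2 with genotype and litter, 7 without litter F, 0 without litter A and 0 to 7 with single libraries left out. With the replicate block in place of litter it was 0 (811 at an unadjusted p under 0.05), and the block changed no other call. The cause of these shifts was not tested. The sign of Foxc2 turned to -0.073 with genotype alone, -0.053 with genotype and litter and -0.0013 without litter A, and ran from -0.071 to 0.10 with single libraries left out. That of Foxc1 turned to 0.015 without litter F and ran from -0.065 to 0.015 with single libraries left out. The other 8 members kept a value below 0 throughout. Over the 26 alternatives the FDR ran from 0.303 to 1.0 for Crabp2 and from 0.318 to 1.0 for Gjb6. Members called between litters numbered 1 without litter A and from 1 to 6 with single libraries left out, and none were called between the sexes. Member pairs past the threshold numbered 12, 1 with litter and sex removed, 4 without litter A and from 4 to 13 with single libraries left out. The fits without litter A, and member pairs without litter F (8), were chosen after seeing the data. With 14 brains, a difference that was not called is not shown to be absent.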
